A study of Mus musculus with 10 samples.

Results

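Of 10 RNA-seq libraries of mouse fetal ovarian germ cells, 3 held far fewer reads on gene models that collect ribosomal-RNA-like sequence than the other 7. The 3 low libraries were Taf4b-deficient replicates 2 and 4 and Taf4b-heterozygous replicate 3. They were chosen by measured values, a Gm23935 level under 1000 CPM (reads of a gene scaled to a common library size) of the library total together with a Lars2 level under 3000 CPM. The 7 high libraries were replicates 1 and 3 of the deficient, 1, 2 and 4 of the heterozygous and both of the wildtype group. Because the choice was made on these libraries, differences between low and high libraries are given as descriptions with no test of their own. The genotype comparisons, which the choice did not use, were tested, as was whether a low minus high difference was unequal in deficient and heterozygous libraries.

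The cells were from female fetuses at E14.5 on a C57BL/6 background, and are called oocytes in the labels. Their parents were homozygous for an Oct4-EGFP transgene and heterozygous for the Taf4b-deficiency mutation, so that all 3 genotypes share the transgene and the mating scheme. Live cells were sorted on GFP after trypsin dissociation, stored in Trizol and sent to a company for RNA extraction and library preparation. The protein made from Taf4b belongs to TFIID, a complex that binds core promoters and recruits RNA polymerase II, and is found mainly in gonads. The labels describe the deficient animals as infertile and both other genotypes as fertile. By litter date, deficient 1 and 2, heterozygous 4 and wildtype 1 belong to January 29, deficient 3 and wildtype 2 to March 1, and deficient 4 and heterozygous 1, 2 and 3 to March 7, where the numbers are the replicates in the labels. The split therefore crossed the 2 dates that held low libraries, and both March 1 libraries were high. No wildtype library was low, and the sources used here do not give the number of animals behind each library. Taf4b had 56.1 to 65.0 CPM in the 4 deficient and 144 to 234 CPM in the 6 fertile libraries, so no library went against its genotype label in this gene. In other genes, among them Itgb5, Eid2 and Gm42047, deficient 2 and 4 lay with the heterozygous and deficient 1 and 3 with the wildtype libraries. Deficient libraries on the 2 sides of the split therefore differed in more than rRNA-like reads, and the sources used here do not give which littermates or linked strain background each library holds. Library totals were 37739826, 37213245 and 44166320 reads for deficient 2, deficient 4 and heterozygous 3, and between 28949924 and 38052378 reads for the high libraries.

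Ribosomal RNA makes up most of the RNA of a cell and is normally kept out of mRNA libraries by selecting polyadenylated RNA or by depleting rRNA. Other abundant RNAs without a poly(A) tail, such as 7SL RNA of the signal recognition particle and 7SK RNA, which holds the elongation factor P-TEFb inactive, can remain with it. Remaining rRNA reads are often counted at short or repeat-bearing gene models that resemble rRNA. The sources used here do not say which step was used for these libraries.

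The reads that mark the split fall on very short, GC-rich models, which are shown because the same letters occur at several places in the genome (GRCm38, GENCODE M21). Gm23935 (chr16:11144125-11144181, plus strand) lies in an intron of Zc3h7a on the opposite strand. Gm24270 (chr9:56223715-56223771, minus strand) lies in an intron of Peak1 on the same strand, and Gm24245 (chr4:139338304-139338360, plus strand) overlaps no other annotated gene. These 3 models are identical over all 57 bases. Gm24187 (chr13:9834469-9834525, minus strand, overlapping no other gene) differs by G11A, counted from 1 at the 5′ end of Gm23935 and shown as a capital. All 4 are annotated as miRNA genes.
Gm23935, Gm24270 and Gm24245: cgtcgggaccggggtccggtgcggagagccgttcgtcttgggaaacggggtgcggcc
Gm24187: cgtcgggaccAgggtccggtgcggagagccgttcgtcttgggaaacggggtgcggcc

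Lars2 and the antisense gene Gm15564, which also mark the split, share a run of 52 bases that lies at positions 3278 to 3329 of a 3894-base Lars2 transcript, in its 3′ untranslated region. Reads of shared stretches cannot be assigned to 1 gene from their letters, and the sources used here do not say how such reads were treated.

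**Figure D1:**
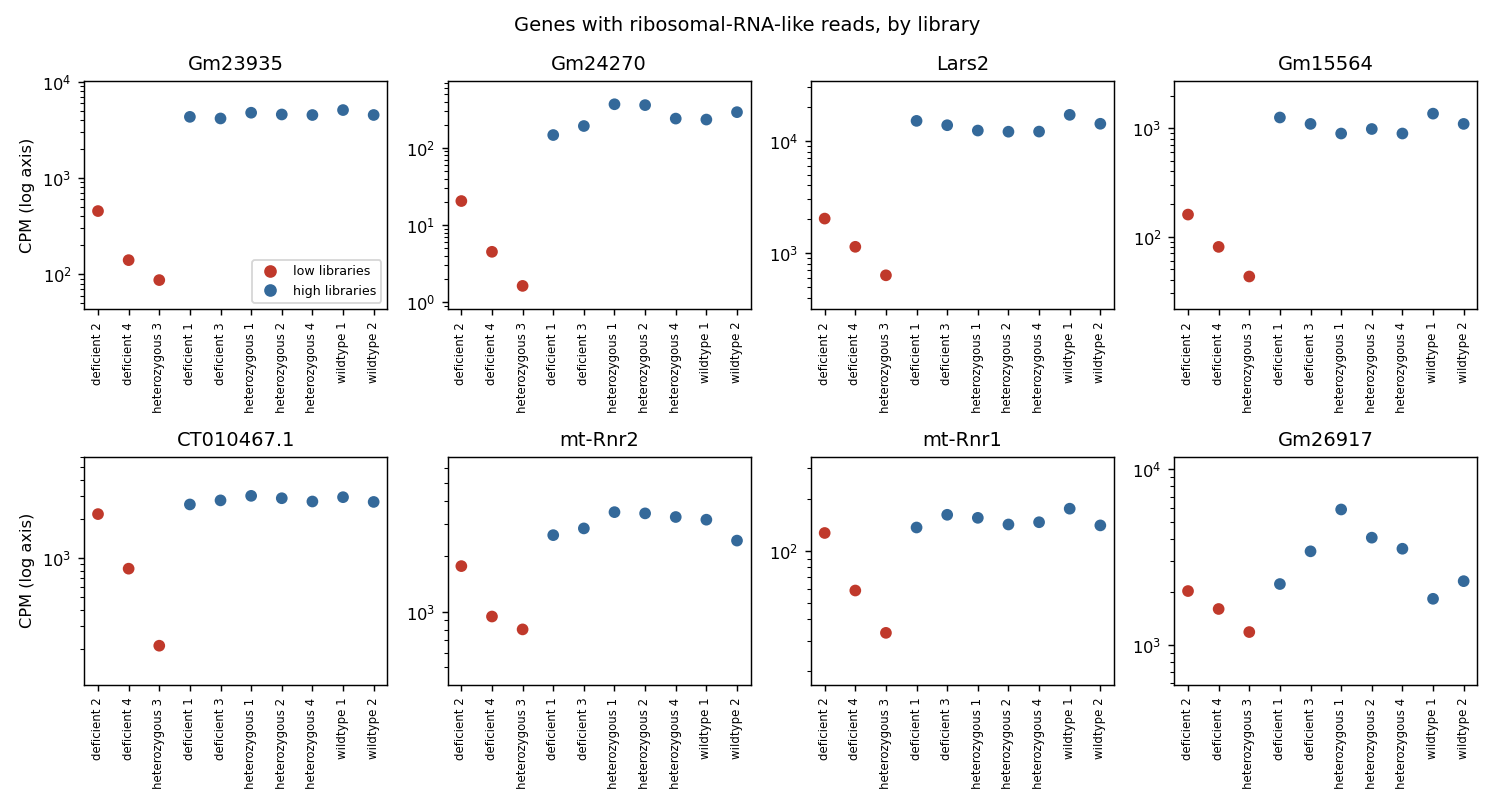
CPM (TMM scaling, log axis) of 8 genes in each library, with low libraries in red and high libraries in blue. In Gm23935, Gm24270, Lars2 and Gm15564 all 3 low libraries lie far below all 7 high ones, in CT010467.1 deficient 2 lies close to the high libraries, and in Gm26917 the groups overlap.

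On the scale of the rule, Gm23935 stood at 459, 143 and 89.9 CPM of the library total in deficient 2, deficient 4 and heterozygous 3, and between 3961 and 4931 CPM in the high libraries. Lars2, the mitochondrial leucyl-tRNA synthetase, stood at 2048, 1152 and 652 CPM in the same 3 libraries and between 11912 and 16528 CPM in the high ones. In the authors' deposited TPM values, Lars2 did not separate the groups. It had 21.1, 20.9 and 24.0 TPM in the same 3 libraries and 16.2 to 28.4 TPM in the high ones. Gm23935 stayed apart there, at 791 to 3626 TPM against 31391 to 39170 TPM. The reason for this difference between the 2 measures was not tested. The low library nearest to the limits was deficient 2 for both genes, and the nearest high libraries were deficient 3 for Gm23935 and heterozygous 1 for Lars2. All further CPM values use TMM scaling over the 20317 genes that passed edgeR's filter on low counts. Gm23935 then averaged 227 ± 198 CPM (SD, n = 3) in the low and 4550 ± 299 CPM (SD, n = 7) in the high libraries. The identical model Gm24270 had 20.5, 4.51 and 1.63 CPM in deficient 2, deficient 4 and heterozygous 3, against 147 to 368 CPM in the high libraries. Gm24187 had 0.33 to 1.57 CPM against 12.1 to 16.1 CPM, and Gm15564 had 42.9 to 160 CPM against 896 to 1368 CPM. The 3 low libraries kept the same order in each of these genes, with deficient 2 highest and heterozygous 3 lowest.

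The label of the split was checked against genes annotated as ribosomal RNA, and held in part. Of 5 tested genes in the rRNA class, 1 was lower without overlap by a mean of at least 2-fold, and the median log2 difference was 0.01. Gm24009, Gm27266, Gm23114 and Gm23473 had low minus high differences of 0.06, 0.01, 0.23 and -0.10. None of them exceeded 2.91 CPM in any library. CT010467.1, annotated as rRNA (chr17:39846353-39848827), had 828 CPM in deficient 4 and 211 CPM in heterozygous 3 against 2583 to 3009 CPM in the high libraries. In deficient 2 it had 2178 CPM, below every high library by less than 2-fold. The neighbouring lincRNA Gm26917 (chr17:39843013-39846341) had 2021, 1597 and 1179 CPM in deficient 2, deficient 4 and heterozygous 3, and 1825 to 5902 CPM in the high libraries, so its groups overlapped. Gm26917 was chosen for description after its values were seen. Gm42418 and AY036118, annotated genes that overlap exons of CT010467.1, were listed at 0 reads in all 10 libraries. The mitochondrial large ribosomal RNA mt-Rnr2 had 1768, 941 and 801 CPM in deficient 2, deficient 4 and heterozygous 3 against 2433 to 3473 CPM in the high libraries. The small mitochondrial ribosomal RNA mt-Rnr1 had 127, 58.8 and 33.4 CPM against 136 to 175 CPM, again with deficient 2 nearest to the high group.

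A set of 368 rRNA-like genes held genes that are rRNA by annotation, share sequence with the genes above or were added by symbol. Among those added by symbol were Mir6236 and Gm26917, whose groups overlapped. Summed over the set, rRNA-like reads took 0.888%, 0.487% and 0.308% of deficient 2, deficient 4 and heterozygous 3, and 2.72% to 3.11% of the high libraries. Most of that gap restates the choice, since Gm23935 and Lars2, which chose the libraries, took 1.65% to 2.15% of the high libraries. Without these 2 genes the sum was 0.637%, 0.357% and 0.234% against 0.901% to 1.34%. Genes annotated as miRNA took 0.0533%, 0.0180% and 0.0118% against 0.432% to 0.535%, and 5 of the 37 tested miRNA genes, Gm23935 among them, were lower in the low libraries by the rule for following the split. Gm23935 alone took 0.396% to 0.493% of the high libraries, and without it the miRNA shares were 0.00280% to 0.00734% against 0.0342% to 0.0544%. A gene was said to follow the split where all low libraries lay on 1 side of all high libraries and the mean log2(CPM + 0.5) differed by at least 1. Among all 20317 tested genes, 219 followed by being lower (1.08%) and 16 by being higher (0.0788%). Genes annotated as misc_RNA, mitochondrial rRNA, rRNA, antisense and sense-overlapping also took shares that did not overlap between low and high libraries. For sense-overlapping genes the gap was narrow, at 0.000706% to 0.000857% in the low and 0.000859% to 0.00114% in the high libraries. Outside rRNA-like genes the miRNA shares overlapped, at 0.00240% to 0.00320% in the low and 0.00305% to 0.00505% in the high libraries, and the ratio of the low to the high mean was 0.646 against 0.0560 over all reads. The antisense shares overlapped there too, at 0.0982% to 0.122% against 0.0883% to 0.152%, with a ratio of 0.979 against 0.554 over all reads, of which the rRNA-like gene Gm15564 is part. Shares of small nucleolar, small nuclear and small Cajal body RNAs overlapped between the groups, as did lincRNAs. Protein-coding genes took 97.3% to 98.0% of the low and 96.2% to 96.8% of the high libraries.

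**Figure D2:**
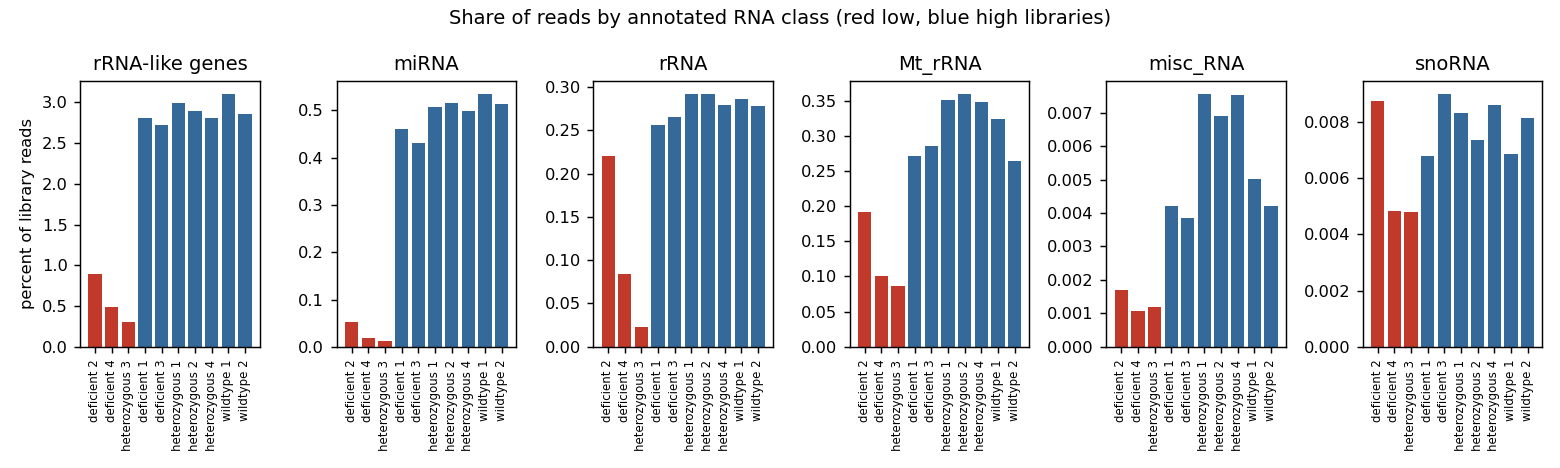
Percent of library reads in each annotated RNA class, 1 bar per library, with low libraries in red and high libraries in blue. rRNA-like genes, miRNA, rRNA, mitochondrial rRNA and misc_RNA separate the groups, with deficient 2 the nearest of the low libraries for rRNA (0.221% against at least 0.256%), and snoRNA overlaps.

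Within the misc_RNA class, 3 of 16 tested genes were lower by the rule in every comparison. The 7SL RNA gene Rn7s1 had 2.33, 1.43 and 1.23 CPM in deficient 2, deficient 4 and heterozygous 3 against 8.87 to 16.8 CPM. Rn7s2, also a 7SL gene, had 1.70 to 3.28 CPM against 13.1 to 34.8 CPM. Rn7sk, the 7SK RNA gene, had 1.35 to 2.1 CPM against 6.35 to 12.6 CPM. The low and high libraries did not overlap in any of these. Of 14 tested nuclear long noncoding RNAs on the list, none followed over all libraries, where 1.08% of all tested genes were lower and 0.0788% higher. Malat1 had 75.9 to 149 CPM in the low and 53.1 to 114 CPM in the high libraries.

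Within deficient libraries, which carry the same genotype label on both sides, 276 genes were lower (1.36%) and 382 were higher (1.88%) in replicates 2 and 4 than in replicates 1 and 3. Within heterozygous libraries, where 1 low library was set against 3, 792 genes were lower (3.9%) and 162 higher (0.797%) in replicate 3. These comparisons share no library. Lower in both genotypes were 187 genes (0.92%), which is 67.8% of the deficient list and 23.6% of the heterozygous list. Higher in both were 27 genes (0.133%), which is 7.07% of the deficient list and 16.7% of the heterozygous list. The median difference within heterozygous libraries was -1.21 on the log2 scale for the 276 genes lower within deficient, and 0.29 for the 382 genes higher there, beside a median of -0.0042 over all tested genes. Leaving out deficient 1 gave 750 lower and 917 higher genes within deficient, and leaving out deficient 4 gave 473 and 682. Leaving out heterozygous 2 gave 426 higher genes within heterozygous, and leaving out heterozygous 4 gave 287.

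**Figure D3:**
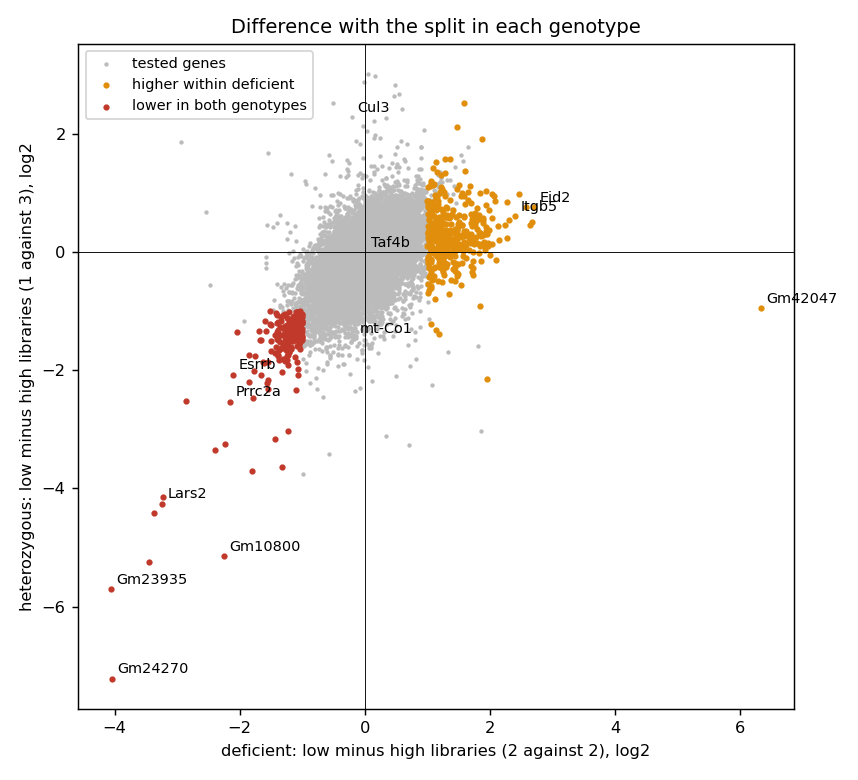
Difference of mean log2(CPM + 0.5), low minus high libraries, within deficient (x, 2 against 2) and within heterozygous (y, 1 against 3), 1 point per tested gene. The 187 genes lower in both (red), 0.92% of all tested genes, include 7 of the 15 tested rRNA-like genes. Among these 7 are Gm23935 and Lars2, which chose the libraries, and Gm24270 and Gm24187, which share sequence with Gm23935. The 382 genes higher within deficient (orange) have a median of 0.29 in heterozygous libraries, and Gm42047 stands alone at the right.

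Protein-coding genes made up 198 of the 219 genes that were lower over all libraries, and 14843 of the 20317 tested genes. Prrc2a, which encodes a large RNA-binding protein, had 29.3, 16.8 and 16.0 CPM in deficient 2, deficient 4 and heterozygous 3 against 79.7 to 101 CPM in the high libraries, a mean of 20.7 ± 7.5 CPM (SD, n = 3) against 93.3 ± 8.9 CPM (SD, n = 7). Hspg2, which encodes the basement membrane proteoglycan perlecan, had 30.3, 14.2 and 12.4 CPM against 41.0 to 81.0 CPM. Tns3, a focal adhesion protein gene, had 6.21 to 7.63 CPM against 18.0 to 33.3 CPM. Ahdc1, Wdtc1 and Vat1 were lower with log2 differences of -1.91, -1.88 and -1.85. Gm10800, a gene model that shares runs of sequence with many similar models, had 12.4, 3.95 and 2.25 CPM against 31.9 to 124 CPM, and its related model Gm21738 had 0.64 to 3.09 CPM against 5.93 to 20.2 CPM. The histone gene Hist1h3i was the only 1 of 56 tested replication-dependent histone genes to follow over all libraries, with 3.79 to 4.48 CPM against 9.63 to 21.4 CPM. Among genes with a mean of at least 5 CPM, 1 gene was named by the rule as higher in all 3 comparisons. This was Arhgdig, with 52.3, 61.0 and 76.0 CPM in the low and 17.7 to 40.4 CPM in the high libraries.

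Genes that were lower in the low libraries tended to be long. Over 11701 protein-coding genes with a mean of at least 2 CPM, the median summed exon length was 4560 bases and the median GC content 49.7%. The 189 genes of this set that were lower over all libraries had medians of 6782 bases and 53.8%. A GC content above the median of all genes was not particular to lower genes, since the 15 genes higher over all libraries had medians of 3089 bases and 54.2%, and the 324 higher within deficient had 53.5%. In 5 equal groups of genes ordered from short to long exon length, 15, 21, 27, 47 and 79 genes were lower, and the median log2 difference went from 0.16 to -0.17. Within deficient the median went from 0.09 to -0.15, and within heterozygous from 0.24 to -0.23. By GC content, 12, 19, 34, 53 and 71 genes were lower from the lowest to the highest of 5 equal groups, while the median difference went from 0.03 to 0.09. Genes higher within deficient numbered 40, 45, 47, 58 and 134 in the same groups. The part of length and GC content in the gene differences was not tested.

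**Figure D4:**
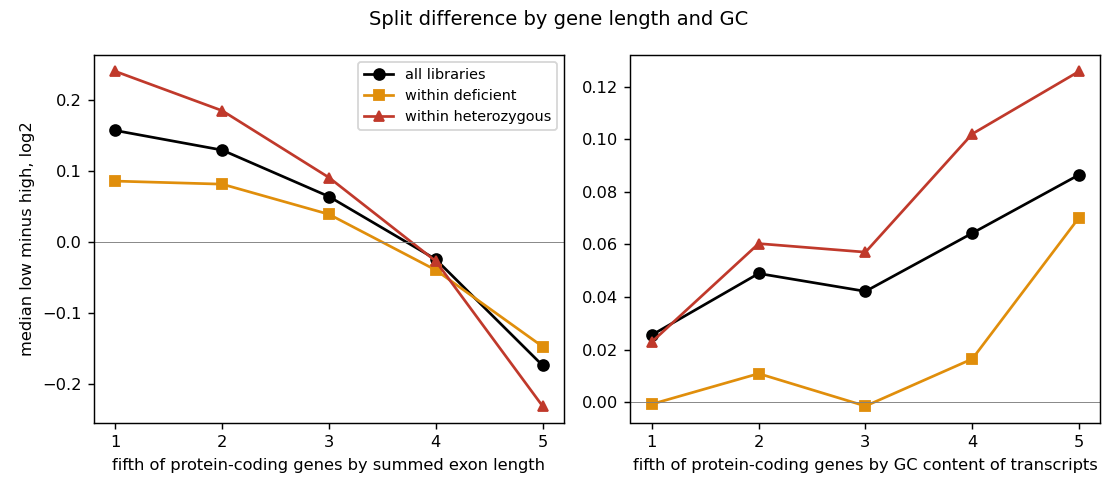
Median low minus high difference of log2(CPM + 0.5) in 5 equal groups of protein-coding genes, ordered by exon length (left) and GC content (right), for all libraries, within deficient and within heterozygous. The medians fall with length in all 3 comparisons, from 0.16 to -0.17 over all libraries, and move less with GC content.

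Mitochondrial mRNAs separated heterozygous 3 from the other low libraries. All 13 mitochondrially encoded mRNAs were lower by the rule within heterozygous and none within deficient or over all libraries. The cytochrome c oxidase subunit gene mt-Co1 had 1496 CPM in heterozygous 3, 5323 and 3705 CPM in deficient 2 and 4, and 4097 to 5631 CPM in the high libraries. The cytochrome b gene mt-Cytb had 985 CPM in heterozygous 3 and 2729 and 2156 CPM in deficient 2 and 4, against 2068 to 2854 CPM in the high libraries. By CPM, Lars2 was the only 1 of 17 tested mitochondrial tRNA synthetase genes to follow the split, and the median over the list was 0.09 on the log2 scale. The TPM values of Lars2 overlapped between low and high libraries. None of 20 cytosolic tRNA synthetases and none of 40 ribosome biogenesis genes followed in any of the 3 comparisons. Of 82 cytosolic ribosomal protein genes, none followed over all libraries or within deficient and 2 were lower within heterozygous, with medians of -0.25, -0.17 and -0.47. Of all tested genes, 1.08% were lower and 0.0788% higher over all libraries, 1.36% and 1.88% within deficient, and 3.9% and 0.797% within heterozygous. At these shares, few or no followers in the tRNA synthetase, ribosome biogenesis and ribosomal protein lists say little about their genes.

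Germ cell genes were present in every library. The RNA-binding germ cell genes Dazl and Ddx4 had 2550 to 2780 and 865 to 1020 CPM in the low libraries and 2284 to 2625 and 696 to 1085 CPM in the high ones, so that both overlapped. Of 24 tested germ cell identity genes, 2, Esrrb and Lin28a, were lower over all libraries, beside 1.08% of all tested genes. Within deficient 3 were lower, beside 1.36%, and the list median was -0.43 against 0.01 over all tested genes. Nanog, Pou5f1 and Dppa5a had log2 differences of -1.21, -0.77 and -0.19 within deficient. Of these 3 genes only Nanog followed there, and none followed over all libraries. The pluripotency factor gene Esrrb had 6.82, 11.1 and 5.06 CPM in deficient 2, deficient 4 and heterozygous 3, against 14.3 to 58.1 CPM. Lin28a, which encodes a let-7 binding protein of early germ cells, had 73.6, 72.3 and 28.9 CPM against 87.9 to 173 CPM. None of 39 meiotic genes followed over all libraries or within deficient, with medians of 0.41 and 0.60, and 1 was higher within heterozygous. Of all tested genes, 0.797% were higher within heterozygous. At such shares, few or no followers in a list of 39 say little about its genes. The mean log2(CPM + 0.5) of the meiotic list was 6.56, 5.73 and 6.83 in deficient 2, deficient 4 and heterozygous 3. In the high libraries it was 6.06 and 4.97 in deficient 1 and 3, 4.83, 7.14 and 6.86 in heterozygous 1, 2 and 4, and 6.06 and 6.01 in wildtype 1 and 2. The meiosis inducer gene Stra8 had 606 to 991 CPM in the low and 237 to 939 CPM in the high libraries. Whether Esrrb and Lin28a followed the level of the meiotic list was not tested.

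Markers of other gonadal cells overlapped between low and high libraries in their summed level. The sum over 19 tested pregranulosa markers was 60.9 to 80.4 CPM in the low and 41.8 to 89.1 CPM in the high libraries. Sums over 13 stromal and mesothelial markers were 71.6 to 86.8 against 53.7 to 80.2 CPM, over 22 blood and macrophage markers 14.6 to 38.0 against 21.3 to 41.0 CPM, and over 8 mesonephric epithelium markers 313 to 424 against 241 to 563 CPM. Over 10 endothelial markers the sums were 110 to 234 against 88.5 to 416 CPM. Eng, an endothelial TGF-beta co-receptor gene, had 5.90 to 8.91 CPM against 9.65 to 22.4 CPM. It was the only member of these 5 lists to follow over all libraries, where 1.08% of all tested genes were lower. Within deficient, 2 of 19 pregranulosa markers were lower and 1 higher. There 1 of 13 stromal and mesothelial and 1 of 10 endothelial markers were lower, beside 1.36% of all tested genes lower and 1.88% higher. Of 29 immediate-early and heat shock genes, 6 were higher within deficient, where 1.88% of all tested genes were, and 2 within heterozygous, where 0.797% were. The mean log2(CPM + 0.5) of that list was 4.97 in deficient 4, 5.00, 4.31 and 4.77 in heterozygous 1, 2 and 3, all of March 7, and 3.90 to 4.21 in the other 6 libraries.

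The genes higher within deficient mostly lay at the heterozygous level in the low deficient libraries. Of these 382 genes, the 3 high heterozygous libraries all lay above both high deficient libraries in 325, and both wildtype libraries lay below both low deficient libraries in 354. The same orders held in 14.7% and 21% of all tested genes, and choosing genes low in deficient 1 and 3 and high in deficient 2 and 4 raises both counts, so they describe the list and test nothing. Relative to the high deficient libraries, the median difference was 1.28 in the low deficient, 1.37 in the high heterozygous and -0.08 in the wildtype libraries. Itgb5, which encodes an integrin beta subunit, had 85.6 and 124 CPM in deficient 2 and 4 but 21.3 and 17.0 CPM in deficient 1 and 3. It had 94.5, 100.2, 143 and 87.7 CPM in heterozygous 1 to 4, and 17.8 and 23.2 CPM in wildtype 1 and 2. Eid2, an inhibitor of differentiation gene, had 20.1 and 31.3 CPM in deficient 2 and 4, 3.40 and 3.42 CPM in deficient 1 and 3, 18.7 to 37.0 CPM in the heterozygous and 2.54 and 3.50 CPM in the wildtype libraries. Rbmxl2, a germ cell RNA-binding protein gene, had 55.3 and 92.4 CPM in deficient 2 and 4, 10.9 and 10.6 CPM in deficient 1 and 3, 59.1 to 105 CPM in the heterozygous and 7.60 and 11.3 CPM in the wildtype libraries. Fbxo45 and Nectin3 had the same order, with the low deficient libraries at 33.1 and 39.0 CPM and at 118 and 159 CPM, and the high deficient libraries at 11.1 and 11.6 CPM and at 40.0 and 35.8 CPM. In each of these 5 genes, the low deficient and all heterozygous libraries lay above the high deficient and wildtype libraries.

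**Figure D5:**
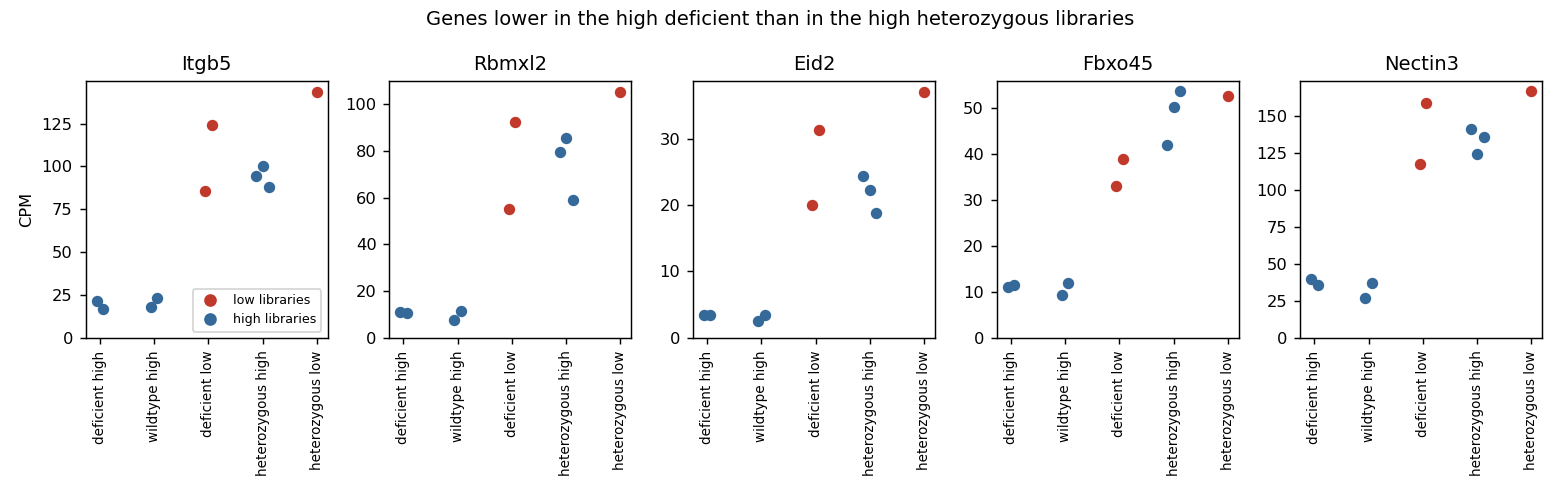
CPM of 5 genes, 1 point per library, by genotype and split, with low libraries in red and high libraries in blue. High deficient and wildtype libraries lie at the bottom of each panel and low deficient libraries lie with or near the heterozygous ones, as for Itgb5 at 17.0 to 23.2 against 85.6 to 143 CPM.

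Genotype was tested among the 7 high libraries alone with edgeR's quasi-likelihood test, with p-values adjusted by the Benjamini-Hochberg method over 19701 genes. Deficient libraries had 92 genes lower (0.467%) and 5 higher (0.0254%) than heterozygous ones at an adjusted p under 0.05. Heterozygous libraries had 182 genes higher (0.924%) and 4 lower (0.0203%) than wildtype. These comparisons share the heterozygous libraries. Deficient against wildtype gave 0 calls in each direction with edgeR (0%), with 108 higher and 161 lower genes at an unadjusted p under 0.05, and 0 higher and 1 lower with DESeq2. Taf4b itself was not called there, at -1.57 (SE 0.27, edgeR adjusted p = 0.999). The lack of calls therefore does not show that deficient and wildtype libraries were alike. Itgb5 was lower in deficient than in heterozygous high libraries, with a fitted difference of -2.30 on the log2 scale (SE 0.20, adjusted p = 0.033), and higher in heterozygous than in wildtype libraries by 2.20 (SE 0.20, adjusted p = 0.016). Rbmxl2 gave -2.79 (SE 0.27) and 2.99 (SE 0.27), Eid2 gave -2.67 (SE 0.26) and 2.85 (SE 0.26), and each passed in both comparisons. These counts rest on single libraries: without heterozygous 1 they were 2122 lower and 1852 higher genes in deficient against heterozygous, and 923 higher and 441 lower in heterozygous against wildtype. Without deficient 1, deficient 3, heterozygous 2 or heterozygous 4 at most 1 gene was called in any of these, without wildtype 1 or wildtype 2 there were 62 or 44 lower genes in deficient against heterozygous and 0 or 55 higher genes in heterozygous against wildtype, and with litter date as a term there were 0 calls.

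The low libraries, which did not enter that fit, gave another value for the same genes. For the 92 genes lower in deficient, the median log2 fold change was -1.73 among the high libraries, and the median of deficient 2 and 4 minus heterozygous 3 was -0.19. Of the 92 genes, 85 differed by less than 2-fold between the low deficient and low heterozygous libraries, and 5 were lower by at least 2-fold. Both low deficient libraries lay above both wildtype libraries in 90, beside 21% of all tested genes. In the fit of the high libraries, 90 of the 92 were also called higher in heterozygous than in wildtype libraries. The list was thus already low in wildtype, and the order against wildtype describes it and tests nothing. For the 182 genes higher in heterozygous than wildtype high libraries, the median of low deficient minus low heterozygous libraries was -0.11. A single heterozygous low library stands behind these differences, so they have no replicate check on that side.

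Taf4b itself did not move with the split. It had 62.1 and 60.1 CPM in deficient 2 and 4 and 56.1 and 65.0 CPM in deficient 1 and 3, with 144 to 234 CPM in the 6 fertile libraries and 195 CPM in heterozygous 3. The low minus high difference was 0.02 within deficient and -0.01 within heterozygous on the log2 scale. With the split as a term over all 10 libraries, the fitted log2 fold change of Taf4b in deficient against heterozygous libraries was -1.71 with an SE of 0.17 (edgeR adjusted p = 0.015), and it was -1.71 (SE 0.17, adjusted p = 0.012) without that term. Leaving out each library in turn kept it between -1.78 and -1.60, but the adjusted p rose to between 0.062 and 0.10 without deficient 1, 2 or 3 or heterozygous 2 or 4, and to 0.39 with litter date as a term.

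With genotype and the split fitted together by edgeR, deficient against heterozygous gave 5 genes higher (0.0246%) and 3 lower (0.0148%), and genotype alone gave 2 higher (0.00984%) and 1 lower (0.00492%). All 3 genes called with genotype alone were among the 8. Kifc1, a kinesin gene, was higher in deficient libraries by 2.57 (SE 0.24, adjusted p = 0.015), with 12.1 to 34.1 CPM in deficient, 1.67 to 7.60 CPM in heterozygous and 19.6 and 21.3 CPM in wildtype libraries. Rnf10, an E3 ubiquitin ligase gene, was higher by 1.06 (SE 0.11, adjusted p = 0.015). Gm8797, Gm8226 and Gm49450 were also higher. Beside Taf4b, the transcription factor gene Tcfl5 was lower, at -1.88 on the log2 scale (SE 0.23, adjusted p = 0.029), as was the arginine methyltransferase gene Carm1, at -1.14 (SE 0.15, adjusted p = 0.041). Tcfl5 had 10.7, 23.4, 7.06 and 31.5 CPM in deficient 1 to 4 and 8.85 and 11.0 CPM in wildtype 1 and 2. It stood at 150 CPM in heterozygous 3 against 22.5 to 27.7 CPM in the other heterozygous libraries, so that deficient 2 lay within and deficient 4 above the range of those 3. Carm1 had 151 CPM in heterozygous 3 against 64.3 to 85.1 CPM in the other heterozygous libraries. Without heterozygous 3 the adjusted p was 0.046 for Tcfl5 and 0.073 for Carm1. The counts of higher and lower genes were 1478 and 1140 without heterozygous 1, 11 and 122 without heterozygous 3, and 0 and 0 without deficient 2, deficient 3, heterozygous 2 or heterozygous 4. With litter date as a term all 8 calls were lost, with Kifc1, Rnf10, Tcfl5 and Carm1 each at an edgeR adjusted p of 0.51. Deficient against wildtype gave 0 calls in each direction with edgeR, with 272 higher and 224 lower genes at an unadjusted p under 0.05, and DESeq2 gave 0 higher and 2 lower. Deficient against the mean of both fertile genotypes also gave 0 calls with edgeR, with 595 and 553 at an unadjusted p under 0.05, and DESeq2 gave 16 higher and 7 lower. Taf4b was not called by edgeR in either, at -1.56 (SE 0.22, adjusted p = 0.61) against wildtype and -1.63 (SE 0.17, adjusted p = 0.061) against both.

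Whether a gene moved differently with the split in deficient and in heterozygous libraries was tested by the difference of both changes in edgeR. The heterozygous low side is 1 library, so its spread was taken from the other groups and a value of that library alone can give a call. It was higher in deficient for 1 gene (0.00492%) and lower for 1 gene (0.00492%), and at an unadjusted p under 0.05 for 730 and 117. The first was the lincRNA Gm42047 (chr8:121833247-121841178, plus strand, in an intron of Gm20388 on the same strand), at an adjusted p of 0.0030. It had 1791 and 1535 reads in deficient 2 and 4 and 1504, 976, 709 and 764 reads in heterozygous 1 to 4, but 2 and 1 reads in deficient 1 and 3 and 1 and 2 reads in wildtype 1 and 2. More than 2 reads on Gm42047 were thus found in all 4 heterozygous and both low deficient libraries, and in no other. The second was Cul3, which encodes the scaffold of a ubiquitin ligase, with 428 CPM in heterozygous 3 and 63.0 to 93.4 CPM in the other 9 libraries, a difference of -2.48 (SE 0.22, adjusted p = 0.019) that rests on that 1 library. Gm42047 passed with each library left out in turn that the test allows, at adjusted p-values up to 0.041, whereas Cul3 passed only without heterozygous 1, at 0.0037, and was otherwise between 0.054 and 0.19. Itgb5, Eid2 and Rbmxl2 gave 1.85, 2.15 and 2.29 at adjusted p-values of 0.29 to 0.30, and did not pass.

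Heterozygous 3 stood apart in further genes. At least 3-fold above every other library and at 5 CPM or more were 14 genes in heterozygous 3, 2 in heterozygous 1, 1 in wildtype 2 and 0 in each of the other libraries. The genes of heterozygous 3, described after their values were seen, included Khdrbs3, an RNA-binding protein gene, at 50.7 CPM against 4.34 to 6.71 CPM, and the forkhead factor gene Foxo6 at 19.4 against 0.95 to 2.78 CPM. At least 3-fold below every other library were 6 genes in heterozygous 3, 2 in heterozygous 2 and 0 in the others. Within the January 29 libraries, deficient 2 against deficient 1 gave 279 genes lower and 450 higher, of 20317 tested. With 1 library on each side, these counts hold every gene with at least a 2-fold difference. Within the March 7 libraries, deficient 4 and heterozygous 3 against heterozygous 1 and 2 gave 485 lower and 47 higher. Here the high side held only heterozygous libraries, so genotype is mixed with the split.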

How the data were processed

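Bulk RNA was sequenced from 10 libraries of sorted female germ cells. The submitters' processing notes name Trim Galore 0.5.0, FastQC 0.11.5, the aligner HISAT2 2.1.0, SAMtools 1.9 and the build GRCm38. The authors' deposited counts are whole reads per gene from featureCounts (Subread 1.6.2), and their deposited TPM values come from StringTie 1.3.3b, per the same notes. No count setting, strand setting or rRNA removal step is given in the sources used here.

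All 55536 genes of the table were found in GENCODE M21. The filterByExpr function of edgeR, grouped by genotype, kept 20317 genes. CPM values are counts scaled to TMM library size, and differences use log2(CPM + 0.5). Low and high libraries were described by the rule of non-overlap with at least 2-fold difference. Genotype and the interaction with the split were tested with edgeR 4.0.16 (R 4.3.3) quasi-likelihood fits and Benjamini-Hochberg adjustment, with calls at an adjusted p under 0.05. SE is derived from the F statistic. Tests were checked on simulated data. The rRNA-like set holds genes annotated as rRNA or sharing a run of at least 30 bases with the genes of the split. Genes added by symbol, among them Gm26917 and Mir6236, belong to it as well. In the search for shared runs, Gm15564 was compared with Lars2 only.

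The low libraries, the gene lists and the named genes were chosen with earlier results of these data known. Named were Gm23935, Lars2 and Taf4b, genes sharing sequence with Gm23935, up to 12 genes per direction that follow the split in all 3 comparisons with a mean of at least 5 CPM, up to 4 members of each of 20 lists and up to 3 genes of each RNA class that follow (or the highest expressed where none does), up to 5 called genes per direction of each test, and 7 germ cell genes. That gave 95 genes, and genes outside the rule are marked where they occur. Another gene of the split is not reported here. Alternatives were DESeq2 1.42.0, DESeq2 size factors, column totals, TMM without rRNA-like genes, no filter on low counts, fold minimums of 1.5 and 4, TPM with pseudocounts of 0.1 and 1, Gm23935 as a covariate, litter date, replicate number, and leaving out each library. Those chosen after seeing the data were the pairs within a litter date inside 1 genotype and the alternatives among the 7 high libraries. Replicate numbers are shared by the genotypes but do not mark a common litter. The labels do not say that libraries came from separate animals, so p-values reflect only how these samples vary, part of which may be technical.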

Additional observations from a re-analysis of the deposited data

Results flagged for a closer look

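Heterozygous 3 lay far from the other 3 heterozygous libraries in 18 of 42 genes and read shares examined, and heterozygous 1 in 1. The measure is the gap to the nearest library as a share of the whole range, flagged above 0.829 for 4 libraries, and chance flags about 1 in 20 groups. The genes examined were those described in the text, chosen with their values known. Many of them were named because they follow the split, and heterozygous 3 is the only low heterozygous library. The rate of 1 in 20 is therefore no comparator for the 18, which describe the choice of genes and test nothing. Heterozygous 3 was chosen by its Gm23935 and Lars2 values, so their shares of 0.946 and 0.975 describe that choice, as do those of the rRNA-like and miRNA reads, which these 2 genes dominate. Genes that follow the same reads gave 0.904 for Gm15564, 0.897 for CT010467.1, 0.892 for mt-Rnr1, 0.923 for mt-Rnr2, 0.858 for Rn7s1 and 0.866 for Rn7s2. Shares of library reads gave 0.929 for rRNA-like genes, 0.965 for miRNA, 0.895 for misc_RNA, 0.959 for mitochondrial rRNA and 0.950 for rRNA. Of the mRNAs, the share was 0.985 for mt-Co1, 0.836 for Prrc2a, 0.889 for Arhgdig, 0.970 for Cul3 and 0.959 for Tcfl5. For Pou5f1, the gene behind the Oct4 reporter, heterozygous 1 stood at 122 CPM against 36.1 to 45.2 CPM in the other heterozygous libraries, a share of 0.894. In the 4 deficient libraries, 0 of the same 42 were flagged. There 2 libraries stood on each side of the split, so a difference between the sides does not set 1 library apart. The 0 therefore does not show that the deficient libraries were alike.

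The change with the split differed between genotypes for Gm42047, with a fitted log2 difference of 10.7 that depends on the prior count since 4 libraries held at most 2 reads, and for Cul3, at -2.48.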

How the results depend on the processing

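Counts of genes that follow the split are given here as lower and higher. Another scaling (DESeq2 size factors, column totals, TMM without rRNA-like genes) or no filter on low counts moved none of the 8 counts by more than 1.5 times. TPM with a pseudocount of 0.1 gave 259 and 43 over all libraries, 495 and 991 within deficient, 1392 and 780 within heterozygous, and 224 and 118 in both genotypes. TPM with a pseudocount of 1 gave 107 and 18, 151 and 349, 474 and 254, and 88 and 20 in the same order. A fold minimum of 1.5 gave 766 and 73, 1201 and 1096, 2472 and 1044, and 788 and 206, and a minimum of 4 gave 16 and 0, 16 and 20, 43 and 15, and 12 and 0. Within January 29 the counts over all libraries were 224 and 140, within March 7 485 and 47, and within heterozygous of March 7 757 and 287. Leaving out each library in turn gave 176 to 348 and 9 to 90 over all libraries, 237 to 750 and 331 to 917 within deficient, 757 to 949 and 161 to 426 within heterozygous, and 159 to 245 and 20 to 56 in both. Over all libraries the lower count was 348 without deficient 2, and the higher count was 90 without deficient 2, 42 without deficient 4, 54, 38 and 28 without heterozygous 1, 2 and 4, and 9 without wildtype 1. Without deficient 1 and without heterozygous 2, the higher counts in both genotypes were 56 and 54. A smaller group has fewer libraries that can overlap. The within-heterozygous comparison cannot be made without heterozygous 3. Of 1520 recomputed differences of named genes, 1486 stayed within the spread of the libraries, 34 moved further and 0 changed sign. Outside rRNA-like genes the ratio of low to high shares was 0.646 for miRNA, 0.946 for lincRNA and 0.979 for antisense genes, against 0.0560, 0.677 and 0.554 over all reads.

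Test counts are given here as higher and lower. Deficient against heterozygous with the split term gave 2 and 1 without that term, 9 and 8 with Gm23935 as a covariate, 9 and 4 with DESeq2 size factors, 705 and 1101 with no filter, 404 and 462 with DESeq2, 0 and 0 with litter date, and 5 and 92 in the 7 high libraries. Deficient against wildtype gave 15 and 14 with no filter and 0 and 2 with DESeq2. Deficient against both fertile genotypes gave 0 and 1 without the split term, 100 and 169 with no filter and 16 and 7 with DESeq2. The interaction with the split gave 107 and 21 with DESeq2. Among the 7 high libraries DESeq2 gave 61 and 448 in deficient against heterozygous, 0 and 1 in deficient against wildtype and 556 and 35 in heterozygous against wildtype, and litter date as a term gave 0 and 0 in each. Leaving out each library gave 0 to 1478 and 0 to 1140 in deficient against heterozygous, 0 and 0 to 1 against wildtype, 0 to 2 and 0 to 1 against both fertile genotypes, and 1 to 3 and 0 to 6 for the interaction. Among the high libraries it gave 0 to 1852 and 0 to 2122 in deficient against heterozygous, 0 and 0 against wildtype, and 0 to 923 and 0 to 441 in heterozygous against wildtype. An arm left with 1 library was assumed to vary like the others. The causes of these changes were not tested.

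Same-numbered libraries of different genotypes correlated between -0.54 and 0.50 in their deviations from the genotype mean, so the numbers do not pair them. A fit with replicate number as a block gave 0 and 0 calls in deficient against heterozygous, against wildtype, against both fertile genotypes and for the interaction.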
